A study of Homo sapiens with 12 samples.

Results

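The mitochondrial ribosomal proteins of the large subunit (symbols beginning with MRPL and a digit) and of the small subunit (MRPS and a digit) were followed across A431 and HSC-1, established human lines that the labels describe as squamous cell carcinoma of the skin. Of 77 such protein-coding genes in the RefSeq gene table, 73 had a probe set with a gene name, 48 MRPL and 25 MRPS, out of 14884 named genes on the array. MRPL12, MRPS6, MRPS18C and MRPS24 were not analysed here, and 3 named pseudogenes and 2 antisense RNAs were left out. The groups were HSC-1 with everolimus, HSC-1 with DMSO, A431 with everolimus and A431 with DMSO, with 3 arrays in each. Treatment lasted 72 h with 100 nM everolimus, an inhibitor of mTOR complex 1 derived from rapamycin, or with the vehicle DMSO. The labels name 10 and 20% serum in the medium without tying either to a line. Nor do they tell whether replicate arrays stem from separate cultures, and p-values then cover only the spread between the arrays, which may be technical.

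The mitochondrial ribosome translates the few respiratory chain proteins that mitochondrial DNA encodes. Its own proteins are all encoded in the nucleus, made on cytosolic ribosomes and imported, and they fall into homologues of bacterial ribosomal proteins and proteins that bacteria lack. mTOR complex 1 is known to control the translation of many nuclear messages for mitochondrial proteins, and MYC, YY1, NRF1 and the ETS factor GABP are known regulators of genes for mitochondrial proteins. Structures of the human mitochondrial ribosome place MRPS18A and MRPS30 in the large subunit despite their symbols, while MRPS18B sits in the small one.

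Levels are log2 values on the scale of RMA. RMA scales the arrays to each other, so total RNA per cell cannot be read from them. In bulk RNA, fewer cells of a type and less RNA per cell cannot be told apart. A level is read within its own probe set and not against that of another gene. All 73 genes passed the filter on level, which asked for at least 3 of the 12 arrays above the array's median. On all 12 arrays 72 of them lay above it, and MRPL23 did on 10. Array medians ran between 4.34 and 4.39. Over all probe sets, the correlation was 0.989 to 0.992 within a group, 0.987 to 0.991 between the treatments of a line and 0.955 to 0.962 between the lines. All 7 named keratinocyte markers, among them KRT5, KRT14 and DSP, were above the median on all 12 arrays. The same held for 1 of 3 named fibroblast, 2 of 6 melanocyte, 0 of 2 leukocyte and 1 of 4 endothelial markers. The keratinocyte markers themselves moved with everolimus, counted at an adjusted p of 0.05 in limma. In HSC-1, 2 of 7 were up (28.6%) and 2 down (28.6%), beside 7.34% up and 11.3% down of all genes tested. In A431, 0 were up and 5 down (71.4%), beside 2.39% up and 4.33% down of all genes tested. Their median log2 difference was 0.09 in HSC-1 and -0.17 in A431. The part of these markers in the results was not tested.

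In HSC-1, everolimus was followed by lower transcript levels of many mitochondrial ribosomal proteins of both subunits. Of the 73 genes, 22 fell and 2 rose past an adjusted p of 0.05 in limma, with 16 falls and 1 rise among the 48 MRPL genes and 6 falls and 1 rise among the 25 MRPS genes. Falls made up 30.1% of the members against 11.3% of all 10613 genes tested, and rises 2.74% against 7.34%. The median log2 difference, everolimus minus DMSO, was -0.16 over MRPL and -0.09 over MRPS genes, beside -0.021 over all genes tested. Individual changes were small, the largest being 1.36-fold. In 83.6% of the members, 42 of 48 MRPL and 19 of 25 MRPS, the difference lay below 0, beside 55.1% of all genes. An unadjusted p under 0.05 in limma was found for 35 of the 73 members, or 47.9%, beside 30% of all genes. In 34 members all 3 everolimus arrays lay below all 3 DMSO arrays, beside 19.6% of all genes tested, and in 3 they lay above, beside 13.7%. Together these were 50.7% of the members, beside 33.3% of all genes. The count of MRPL falls depended on single arrays, with 8 without HSC-1 DMSO replicate 1 and 10 without HSC-1 everolimus replicate 3.

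**Figure D1:**
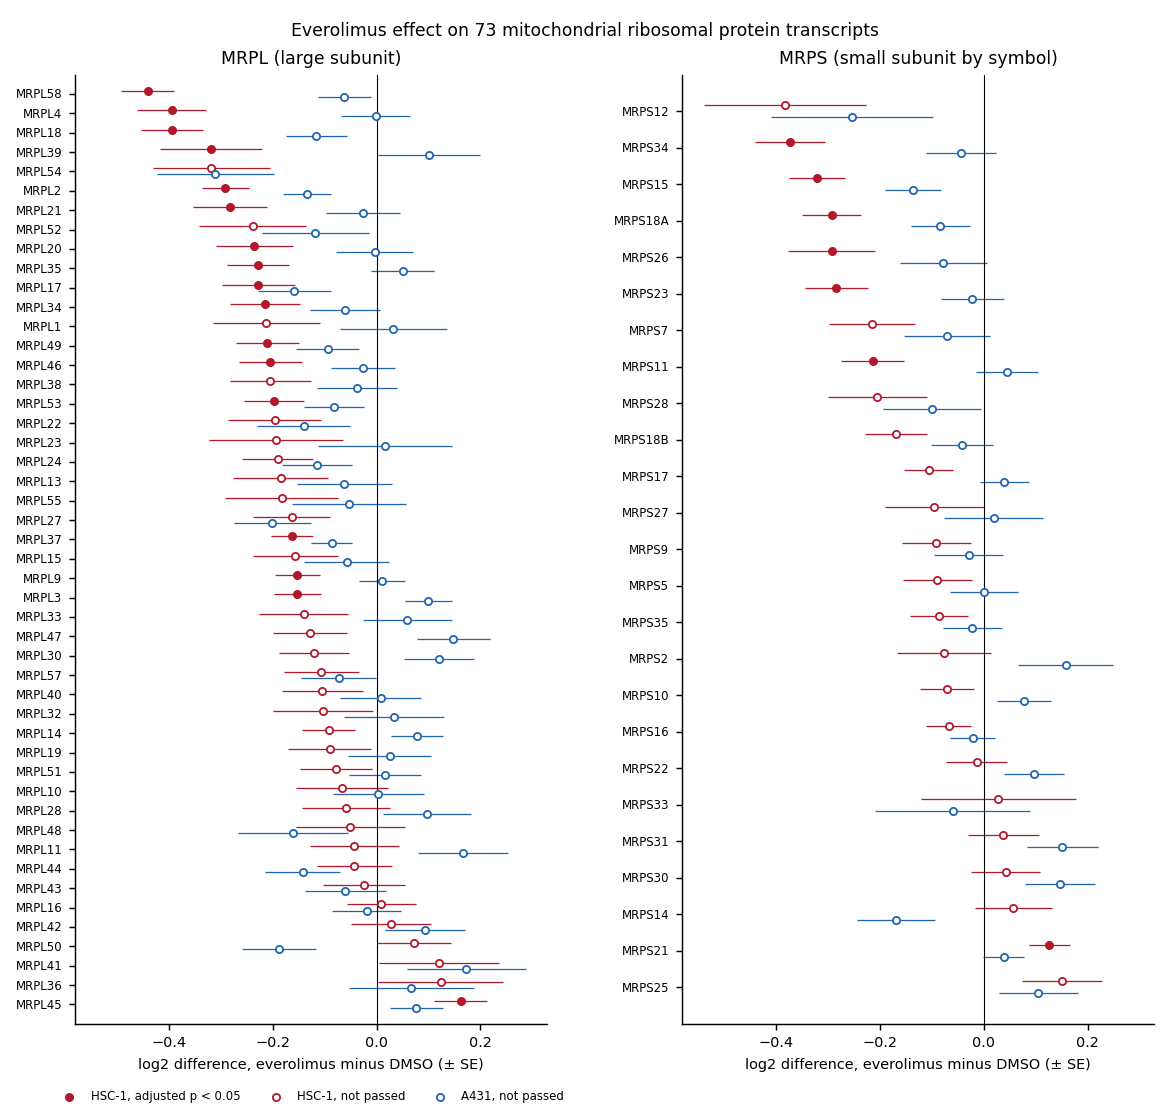
Log2 difference, everolimus minus DMSO, with its SE for each of the 73 genes, MRPL left and MRPS right, HSC-1 in red and A431 in blue. Filled points passed an adjusted p of 0.05, 24 of them in HSC-1 and 0 in A431, and most HSC-1 points lie left of 0.

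MRPL58, a peptidyl-tRNA hydrolase that became part of the large subunit and is known for releasing stalled mitochondrial ribosomes, changed most. Its log2 levels in HSC-1 were 7.83, 7.69 and 7.81 with everolimus, against 8.17, 8.20 and 8.28 with DMSO. Every everolimus array was below every DMSO array, and the difference was -0.44 ± 0.05 (SE), which is 1.36-fold lower (limma adjusted p = 7.24e-06). In A431 the levels were 8.46, 8.35 and 8.43 with everolimus, against 8.47, 8.50 and 8.46 with DMSO, a difference of -0.06 ± 0.05 (adjusted p = 0.573). All A431 arrays were above those of HSC-1, with or without the drug.

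MRPL4 and MRPL18, homologues of bacterial L4, which lines the exit tunnel, and L18, which binds 5S rRNA in bacteria, fell by similar amounts. MRPL4 stood at 7.28, 7.16 and 7.22 in HSC-1 with everolimus, against 7.76, 7.59 and 7.50 with DMSO, a difference of -0.39 ± 0.07 (limma adjusted p = 0.000371). MRPL18 stood at 7.58, 7.54 and 7.45 with everolimus, against 7.96, 7.84 and 7.95 with DMSO, a difference of -0.39 ± 0.06 (limma adjusted p = 0.000125). The HSC-1 groups did not overlap for either gene. In A431, MRPL4 was at 6.92, 7.02 and 6.99 with everolimus and at 6.98, 7.01 and 6.95 with DMSO, and MRPL18 at 7.34, 7.28 and 7.23 with everolimus and at 7.48, 7.40 and 7.32 with DMSO. Both pairs of A431 groups overlapped.

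MRPL2, the homologue of the bacterial protein L2 close to the peptidyl transferase centre, lay lower with everolimus on every array of both lines. HSC-1 had 8.66, 8.74 and 8.71 with everolimus, against 9.08, 9.01 and 8.90 with DMSO, a difference of -0.29 ± 0.05 (limma adjusted p = 0.000202). A431 had 9.40, 9.39 and 9.44 with everolimus, against 9.59, 9.56 and 9.50 with DMSO. Among MRPL genes in A431 it had the smallest p, and the difference of -0.13 ± 0.05 missed the threshold (limma adjusted p = 0.0941).

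MRPL39, a protein without a bacterial counterpart, and MRPL21, a homologue of bacterial L21, complete the 6 largest MRPL falls among those past the threshold. MRPL39 had 5.38, 5.51 and 5.32 in HSC-1 with everolimus, against 5.76, 5.83 and 5.58 with DMSO, a difference of -0.32 ± 0.10 (limma adjusted p = 0.0293). MRPL21 had 6.48, 6.62 and 6.53 with everolimus, against 6.92, 6.80 and 6.75 with DMSO, a difference of -0.28 ± 0.07 (limma adjusted p = 0.00943). Neither gene's groups overlapped, but both calls rested on single arrays. The MRPL39 call was lost without HSC-1 DMSO replicate 1 or 2 or HSC-1 everolimus replicate 1 or 3, with an adjusted p up to 0.125, and that of MRPL21 without HSC-1 DMSO replicate 1, at 0.0602. The other 10 that fell were MRPL3, MRPL9, MRPL17, MRPL20, MRPL34, MRPL35, MRPL37, MRPL46, MRPL49 and MRPL53, with differences of -0.15 to -0.24.

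**Figure D2:**
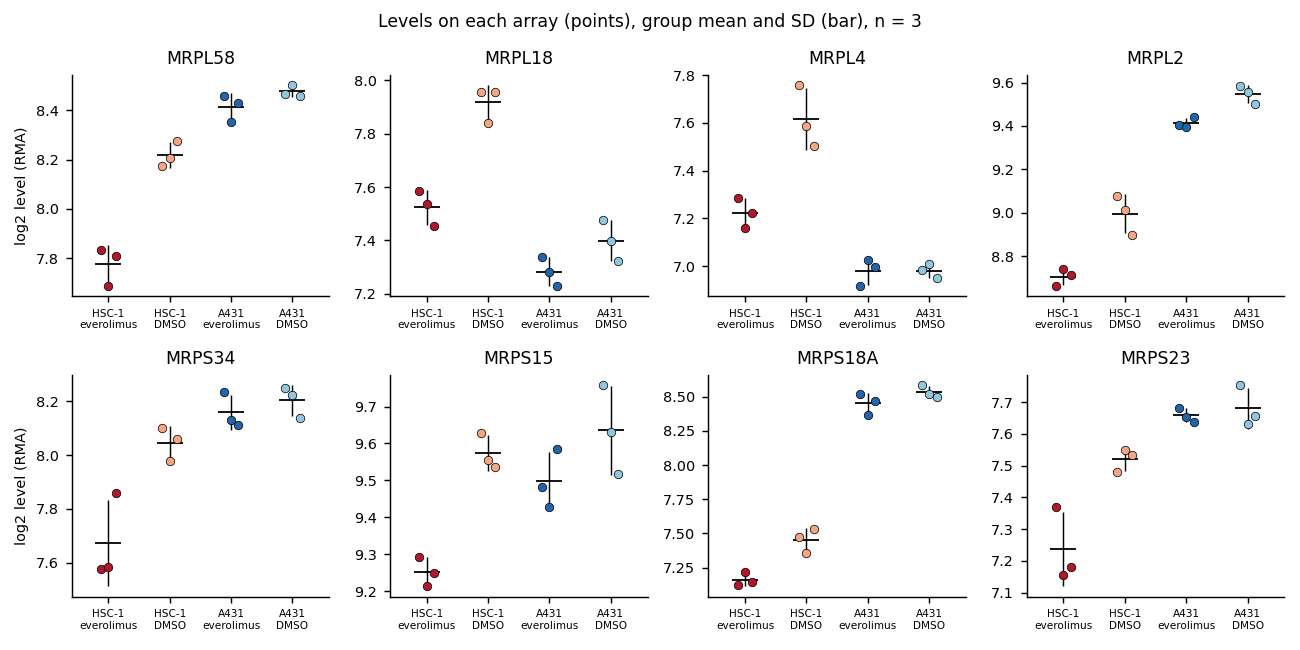
Log2 level on each array (points) with the group mean and SD (bars, n = 3) for 4 MRPL and 4 MRPS genes, in HSC-1 with everolimus, HSC-1 with DMSO, A431 with everolimus and A431 with DMSO. In each panel the HSC-1 everolimus points lie below all HSC-1 DMSO points, as for MRPL58 at 7.69 to 7.83 against 8.17 to 8.28.

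Among the MRPS genes, MRPS34, a protein specific to mitochondria and needed for a stable small subunit, fell most among those past the threshold. Its HSC-1 levels were 7.58, 7.58 and 7.86 with everolimus, against 8.10, 7.98 and 8.06 with DMSO, a difference of -0.37 ± 0.07 (limma adjusted p = 0.000666). The groups did not overlap, and the third everolimus array stood closer to DMSO than the other two. MRPS15, homologue of the bacterial S15 that binds 16S rRNA early in assembly, had 9.29, 9.21 and 9.25 with everolimus, against 9.63, 9.56 and 9.54 with DMSO, a difference of -0.32 ± 0.05 (limma adjusted p = 0.000371). Those groups did not overlap either.

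MRPS18A, 1 of 3 human paralogues of bacterial S18, had HSC-1 levels of 7.12, 7.22 and 7.14 with everolimus, against 7.47, 7.36 and 7.53 with DMSO, a difference of -0.29 ± 0.06 (limma adjusted p = 0.00123). Its paralogue MRPS18B had 7.29, 7.30 and 7.41 with everolimus, against 7.58, 7.48 and 7.44 with DMSO, and the difference of -0.17 ± 0.06 missed the threshold (limma adjusted p = 0.0587). In both paralogues every everolimus array lay below every DMSO array. With MRPS18A and MRPS30 counted in the large subunit, 17 of 50 large subunit genes and 5 of 23 small subunit genes fell, and the medians were -0.16 for the large and -0.09 for the small subunit.

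MRPS23 and MRPS26, which have no bacterial counterpart, and MRPS11, homologue of bacterial S11, also fell. MRPS23 had 7.37, 7.16 and 7.18 in HSC-1 with everolimus, against 7.48, 7.55 and 7.53 with DMSO, a difference of -0.28 ± 0.06 (limma adjusted p = 0.00267). MRPS26 had 6.92, 6.70 and 6.89 with everolimus, against 6.99, 7.09 and 7.30 with DMSO, a difference of -0.29 ± 0.08 (limma adjusted p = 0.0198). MRPS11 had 7.21, 7.21 and 7.08 with everolimus, against 7.41, 7.38 and 7.35 with DMSO, a difference of -0.21 ± 0.06 (limma adjusted p = 0.0179). None of the 3 had overlapping groups. The MRPS26 call was lost without HSC-1 DMSO replicate 3 or HSC-1 everolimus replicate 2, with an adjusted p up to 0.121, and the MRPS11 call without HSC-1 DMSO replicate 1 or HSC-1 everolimus replicate 3, up to 0.0715.

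MRPS12, homologue of the bacterial decoding-site protein S12, had 6.15, 5.95 and 6.31 in HSC-1 with everolimus, against 6.41, 6.498 and 6.65 with DMSO. These groups did not overlap, and the difference of -0.38 ± 0.16, the most negative among MRPS genes, missed the threshold (limma adjusted p = 0.102). The SE draws on all 4 groups, of which A431 with everolimus had an SD of 0.44.

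Both genes that rose did so by little. MRPL45, which lies at the exit of the peptide tunnel and ties the ribosome to the inner membrane, had HSC-1 levels of 8.42, 8.42 and 8.47 with everolimus, against 8.30, 8.22 and 8.31 with DMSO, a difference of 0.16 ± 0.05 (limma adjusted p = 0.0329). MRPS21, homologue of bacterial S21, had 10.16, 10.15 and 10.11 with everolimus, against 9.98, 10.05 and 10.01 with DMSO, a difference of 0.13 ± 0.04 (limma adjusted p = 0.0326). Their groups did not overlap. The MRPL45 call was lost without any 1 of the 6 HSC-1 arrays, with an adjusted p up to 0.138. That of MRPS21 was lost in 8 of 22 alternatives, among them without HSC-1 DMSO replicate 1 or 3 or HSC-1 everolimus replicate 1 or 2. Its highest adjusted p, 0.145, came from the fit with no intensity trend in the variance prior. On either side of the threshold stood MRPL34 at -0.22 ± 0.07 (adjusted p = 0.0337) and MRPL54 at -0.32 ± 0.11 (adjusted p = 0.0576).

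Falls were found among members with and without bacterial counterparts. Of the 41 genes numbered up to MRPL36 and MRPS21, the range in which symbols follow the bacterial numbering, 13 fell (31.7%) and 1 rose (2.44%) in HSC-1, with a median of -0.16. Of the 32 with higher numbers, which are mostly proteins that bacteria lack, 9 fell (28.1%) and 1 rose (3.12%), with a median of -0.11. Over all genes tested, 11.3% fell and 7.34% rose. The difference between these groups was not tested.

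Promoter sequence was available in the RefSeq promoter table (GRCh38.p14, 250 bases before to 50 after the start, the first window listed for a gene) for 65 of the 73 genes, and was searched on both strands for 4 short motifs. The core of ETS factor sites is CCGGAAG, which on the other strand reads CTTCCGG. It was in 28 of 65 promoters or 43.1%, beside 10.7% of 27305 promoters in the table and 18.3% of 7596 promoters of protein-coding genes tested. Among the genes that fell in HSC-1 it was in 8 of 19 (42.1%), and among those that did not pass in 19 of 44 (43.2%). The YY1 core AAGATGGCG, in reverse CGCCATCTT, was in 12 of 65, or 18.5%, beside 1.85% of the table and 3.77% of the genes tested. The NRF1 core GCGCATGC, in reverse GCATGCGC, and the E-box, which reads CACGTG on both strands, were each in 5 of 65, or 7.69%. In the table the NRF1 core was in 3.27% and the E-box in 7.44% of promoters, and among the genes tested the NRF1 core was in 5.29% and the E-box in 9.95%. The ETS and YY1 cores share the letters AAG at an end, but 0 matches of different motifs overlapped in the members. Of 10 members with a promoter in the table that fell in HSC-1, taken in order of size of the fall, 6 carried an ETS core in the 80 bases before the start, and MRPL4, MRPL18, MRPL39 and MRPS15 had none there. Over the whole window, genes that fell and genes that did not pass had nearly the same share, as given above. No share over the other members or over all promoters was counted for these 80 bases. Those bases are shown 5′ to 3′ on the gene's strand, with every ETS core in capitals, for the 6 and, as examples without the core, for MRPL4 and MRPL18.
MRPL58: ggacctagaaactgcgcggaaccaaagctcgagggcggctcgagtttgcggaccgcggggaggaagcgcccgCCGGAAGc
MRPL20: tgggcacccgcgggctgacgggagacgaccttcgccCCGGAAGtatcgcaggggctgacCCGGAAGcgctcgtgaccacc
MRPS34: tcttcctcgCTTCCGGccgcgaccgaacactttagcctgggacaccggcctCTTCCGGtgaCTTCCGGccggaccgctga
MRPS18A: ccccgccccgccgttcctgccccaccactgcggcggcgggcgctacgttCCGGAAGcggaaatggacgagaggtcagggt
MRPS23: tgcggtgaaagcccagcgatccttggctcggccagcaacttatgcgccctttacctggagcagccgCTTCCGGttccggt
MRPS26: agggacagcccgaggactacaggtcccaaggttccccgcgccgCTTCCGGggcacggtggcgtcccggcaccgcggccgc
MRPL4: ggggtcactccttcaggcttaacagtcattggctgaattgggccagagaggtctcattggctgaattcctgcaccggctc
MRPL18: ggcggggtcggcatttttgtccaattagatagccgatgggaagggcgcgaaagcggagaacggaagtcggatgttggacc
These stretches lie at chr17:75012590-75012669 (MRPL58, plus strand), chr1:1407294-1407373 (MRPL20, minus), chr16:1773135-1773214 (MRPS34, minus), chr6:43687792-43687871 (MRPS18A, minus), chr17:57850045-57850124 (MRPS23, minus), chr20:3045972-3046051 (MRPS26, plus), chr19:10251871-10251950 (MRPL4, plus) and chr6:159789732-159789811 (MRPL18, plus). MRPS34 carried 3 cores within its 80 bases and MRPL20 carried 2. A match describes letters in the window and says nothing of binding in these cells.

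In A431 no mitochondrial ribosomal protein passed the test. limma called 0 of the 73 members in either direction at an adjusted p of 0.05, beside 6.73% of all genes tested, 2.39% higher and 4.33% lower. At an unadjusted p of 0.05, 3 members were higher and 8 lower, 11 of 73 or 15.1%, beside 19.1% of all genes. Of the alternatives, leaving out A431 everolimus replicate 3 gave 1 call, MRPL27 at -0.27, leaving out A431 everolimus replicate 1 gave MRPS12 at -0.50, and leaving out A431 DMSO replicate 3 gave MRPS15 at -0.20. The median difference was -0.022 for both MRPL and MRPS genes, beside -0.0038 over all genes tested. Above 0 lay 21 of 48 MRPL and 11 of 25 MRPS differences. Below 0 lay 56.2% of the members' differences, beside 51% over all genes tested. Groups without overlap were found in 10 members, 2 higher and 8 lower, or 13.7%, beside 24.5% of all genes. A p above the threshold does not show that the levels were the same.

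The MRPS gene with the smallest p in A431 was MRPS15. Its levels were 9.48, 9.43 and 9.58 with everolimus and 9.76, 9.63 and 9.52 with DMSO, so that the groups overlapped. The difference of -0.14 ± 0.05 missed the threshold (limma adjusted p = 0.158), which it passed only when A431 DMSO replicate 3 was left out, at 0.0422. Over the alternatives its adjusted p ran up to 0.538, and that of MRPL2 between 0.0596 and 0.273.

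The members were also summarised per array. For each gene the array's deviation from the gene's mean in its line was taken, and the median over genes is given here. Over MRPL genes the 3 HSC-1 everolimus arrays had -0.061, -0.059 and -0.12, against 0.073, 0.070 and 0.078 on the HSC-1 DMSO arrays. The A431 arrays had -0.0042, -0.055 and 0.016 with everolimus, against 0.061, 0.029 and -0.019 with DMSO. In HSC-1 the groups were apart, and in A431 they overlapped. Over MRPS genes the HSC-1 arrays had -0.035, -0.091 and -0.037 with everolimus, against 0.071, 0.060 and 0.031 with DMSO, again without overlap. The A431 arrays had 0.0018, -0.019 and 0.018 with everolimus, against 0.068, 0.0051 and -0.049 with DMSO, and overlapped. Over all genes tested the HSC-1 arrays had 0.0096, -0.011 and -0.024 with everolimus, against 0.016, 0.013 and 0.0070 with DMSO, and the A431 arrays had -0.0057, -0.019 and 0.016 with everolimus, against 0.017, 0.010 and -0.016 with DMSO. Those groups overlapped in both lines.

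The difference between the lines was then tested gene by gene, with the A431 effect subtracted from the HSC-1 effect; these share no arrays. It passed for 6 members, 5 MRPL and 1 MRPS, all with a lower effect in HSC-1, or 8.22% of the members beside 5.69% of all genes tested. None had a higher effect in HSC-1, beside 4.84% of all genes tested. At an unadjusted p of 0.05 in limma, 2 members had a higher and 19 a lower effect, 21 of 73 or 28.8%. Over all 10613 genes tested it was 23.4%, with 1134 higher and 1346 lower. The medians were -0.12 for MRPL and -0.11 for MRPS genes, beside -0.011 over all genes. Below 0 lay 61 of the 73 differences, or 83.6%, beside 52.2% over all genes.

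At an adjusted p of 0.05, MRPL58 and MRPL4 kept their difference under all 21 alternative fits, and at the stricter 0.01 only MRPL58 passed among the members. For MRPL58 the effects were -0.44 in HSC-1 and -0.06 in A431, a difference of -0.38 ± 0.07 (limma adjusted p = 0.00201). For MRPL4 they were -0.39 in HSC-1 and -0.0014 in A431, a difference of -0.39 ± 0.09 (limma adjusted p = 0.011). In both genes the HSC-1 arrays were apart by treatment.

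MRPL3, homologue of bacterial L3, had 9.55, 9.57 and 9.48 in HSC-1 with everolimus and 9.65, 9.66 and 9.74 in HSC-1 with DMSO. A431 had 9.68, 9.72 and 9.84 with everolimus and 9.70, 9.63 and 9.61 with DMSO. The HSC-1 effect was -0.15 and that in A431 0.10, which did not pass by itself, and their difference was -0.25 ± 0.06 (limma adjusted p = 0.016). Of the 21 alternative fits, the one with no intensity trend in the variance prior lost the call, at 0.0976.

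The other three differences lay close to the threshold. MRPS34 differed by -0.33 ± 0.10 (limma adjusted p = 0.0331), MRPL18 by -0.28 ± 0.08 (0.0405) and MRPL35, homologue of bacterial L35, by -0.28 ± 0.09 (0.043). MRPS34 lost its call in 9 of 21 alternatives, MRPL18 in 11 and MRPL35 in 15, with adjusted p values up to 0.103, 0.102 and 0.104. Single arrays sufficed for that. MRPS34 lost it without HSC-1 everolimus replicate 1 or 2, HSC-1 DMSO replicate 1 or 3, A431 everolimus replicate 1, or A431 DMSO replicate 2 or 3. MRPL18 lost it without HSC-1 everolimus replicate 2 or 3, HSC-1 DMSO replicate 1 or 3, A431 everolimus replicate 1 or 2, or A431 DMSO replicate 2 or 3. MRPL35 kept it only without A431 DMSO replicate 1 or HSC-1 everolimus replicate 2 among the single arrays. Just outside the threshold, MRPS23 differed by -0.26 ± 0.09 (adjusted p = 0.059). Leaving out HSC-1 everolimus replicate 3, or A431 DMSO replicate 2 or 3, gave 3 MRPL differences. Leaving out A431 DMSO replicate 1 gave 3 MRPS differences, with MRPS15 and MRPS23 added.

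Across the 73 genes the A431 and HSC-1 effects had a Pearson r of 0.44 (Spearman rho 0.44), and 45 had the same sign (61.6%). Over all 10613 genes r was 0.13, with the same sign in 53.9%. These are correlations across genes, which share their arrays and are not independent replicates.

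Genes of the machinery around the mitochondrial ribosome were set beside all genes tested, of which 11.3% were lower and 7.34% higher in HSC-1. Of 24 tested assembly factors, 4 fell (16.7%) and 1 rose (4.17%) in HSC-1. Their median difference was -0.10 in HSC-1 and 0.03 in A431, where limma called 0 and 2 had an unadjusted p under 0.05. The HSC-1 median over MRPS genes was -0.09 and over all genes -0.021. In HSC-1, 75% of the assembly factors' differences lay below 0, beside 76% for MRPS genes and 55.1% for all genes. An unadjusted p under 0.05 in limma was found for 41.7% of them, beside 48% of MRPS genes and 30% of all genes. MPV17L2, a membrane protein that associates with the large subunit, fell by 0.30 ± 0.07 in HSC-1, ERAL1, a GTPase that chaperones the small subunit rRNA, by 0.29 ± 0.07, and GRSF1, an RNA-binding protein of mitochondrial RNA granules, by 0.25 ± 0.05. MRM2, an rRNA methyltransferase, also fell, by 0.21 ± 0.07, a call lost in 13 of 22 alternatives (adjusted p up to 0.212), among them without HSC-1 DMSO replicate 1 or 3, HSC-1 everolimus replicate 1 or 3, A431 everolimus replicate 1 or A431 DMSO replicate 1 or 2. NOA1, a GTPase of mitochondrial ribosome assembly, rose by 0.29 ± 0.06 on the log2 scale. The effect of MPV17L2 differed between the lines by -0.52 ± 0.10 (limma adjusted p = 0.00154) and that of RCC1L, an exchange factor homologue of large subunit assembly, by -0.25 ± 0.08 (limma adjusted p = 0.038). The RCC1L call was lost in 13 of 21 alternatives (adjusted p up to 0.134), among them leaving out any single array other than A431 DMSO replicate 2, A431 everolimus replicate 3, HSC-1 DMSO replicate 3 and HSC-1 everolimus replicate 3.

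Of 13 tested translation factors, 2 fell and 2 rose in HSC-1, 15.4% in each direction. Over all genes tested, 11.3% fell and 7.34% rose in that line. In A431 0 translation factors passed, also at an unadjusted p of 0.05. Their medians were -0.027 in HSC-1 and 0.03 in A431. TACO1, the translational activator of COX1, fell by 0.40 ± 0.07 in HSC-1, and its effect differed between the lines by -0.51 ± 0.09 (limma adjusted p = 0.00177). MRRF, the factor that recycles mitochondrial ribosomes, rose by 0.31 ± 0.07 in HSC-1, and its effect differed by 0.41 ± 0.10 (limma adjusted p = 0.00858). SLIRP, an RNA-stabilising partner of LRPPRC, fell by 0.26 ± 0.09, and OXA1L, the insertase for newly made inner membrane proteins, rose by 0.12 ± 0.04. The SLIRP call was lost in 11 of 22 alternatives (adjusted p up to 0.152), among them without any 1 HSC-1 DMSO array, HSC-1 everolimus replicate 2 or 3, A431 DMSO replicate 2 or A431 everolimus replicate 1. The OXA1L call was lost in 8 (up to 0.142), among them without HSC-1 DMSO replicate 1 or 3 or HSC-1 everolimus replicate 2 or 3. POLRMT, the mitochondrial RNA polymerase, was the 1 of 4 tested genes of mitochondrial DNA transcription and replication that changed, and it fell by 0.25 ± 0.09 in HSC-1. Its call was lost in 11 of 22 alternatives (adjusted p up to 0.14), among them without any 1 HSC-1 DMSO array, HSC-1 everolimus replicate 2 or 3, A431 everolimus replicate 3 or A431 DMSO replicate 1.

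Of 5 tested regulators of mitochondrial biogenesis, MTFP1, a fission protein whose translation mTOR complex 1 is known to control, fell by 0.43 ± 0.11 in HSC-1, a call lost without HSC-1 DMSO replicate 1 or 2 (adjusted p up to 0.0704). Its effect differed between the lines by -0.63 ± 0.16 (limma adjusted p = 0.0136). MYC rose in A431 by 0.23 ± 0.05 (limma adjusted p = 0.00639), and its difference of 0.13 ± 0.05 in HSC-1 did not pass. Of 79 nuclear genes for subunits of the respiratory chain and ATP synthase, only 17 were tested. CYC1 of complex III fell by 0.20 ± 0.05 and COX8A of complex IV by 0.13 ± 0.04 in HSC-1, none rose, and the median was 0.04 in HSC-1 and -0.07 in A431. The CYC1 call was lost in 3 of 22 alternatives (adjusted p up to 0.084). These were no intensity trend and leaving out HSC-1 DMSO replicate 1 or HSC-1 everolimus replicate 2. The COX8A call was lost in 10 of 22 alternatives (up to 0.218), among them without HSC-1 DMSO replicate 1 or 2, HSC-1 everolimus replicate 1 or 2, A431 everolimus replicate 1 or A431 DMSO replicate 2 or 3. Of the proteins of the mitochondrial ribosome without an MRP symbol, DAP3, PTCD3 and CHCHD1 were tested and did not pass with everolimus in either line. CHCHD1 lay near the threshold in HSC-1, with a difference of -0.27 ± 0.10 (limma adjusted p = 0.0571). There DAP3 differed by 0.04 ± 0.07 and PTCD3 by 0.06 ± 0.06. The mitochondrial aminoacyl-tRNA synthetases had no named probe set and were not analysed here.

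Many cytosolic ribosomal protein transcripts rose in both lines, while many nucleolar factors of cytosolic ribosome assembly fell in HSC-1. Of 91 cytosolic ribosomal protein genes, 54 were tested. In HSC-1 25 of the 54 rose (46.3%) and 0 fell, with a median of 0.20. In A431 22 rose (40.7%) and 0 fell, with a median of 0.18. At an unadjusted p of 0.05 in limma, 1 was lower in HSC-1 and 0 in A431. Of 40 listed nucleolar factors of cytosolic ribosome assembly, 27 were tested. In HSC-1 15 of the 27 fell (55.6%) and 1 rose (3.7%), with a median of -0.24. In A431 0 fell, also at an unadjusted p of 0.05, and 1 rose, with a median of 0.04. Over all genes tested, 7.34% rose and 11.3% fell in HSC-1, and 2.39% rose and 4.33% fell in A431. LYAR, a nucleolar growth regulator, fell by 0.66 ± 0.09, NOP2, an rRNA methyltransferase, by 0.48 ± 0.06 and BOP1, an assembly factor of the cytosolic large subunit, by 0.42 ± 0.07 in HSC-1.

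**Figure D3:**
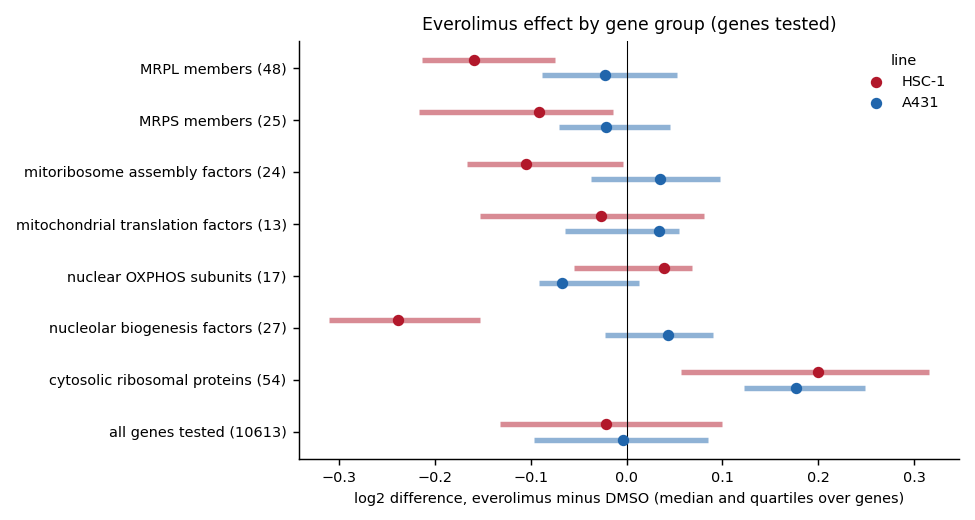
Median (points) and quartiles (bars) over genes of the log2 difference, everolimus minus DMSO, by gene group, HSC-1 in red and A431 in blue, with the number of genes tested in brackets. MRPL genes have medians of -0.16 in HSC-1 and -0.022 in A431, cytosolic ribosomal proteins 0.20 in HSC-1 and 0.18 in A431.

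Without the drug, the lines differed in many mitochondrial ribosomal proteins, in both directions. In HSC-1 with DMSO against A431 with DMSO, 27 of 73 members were higher and 26 lower, or 37% and 35.6%, beside 29.2% higher and 30.2% lower and 59.4% in either direction over all genes tested. At an unadjusted p of 0.05 it was 57 members or 78.1%, beside 62.4%. Among MRPL genes 15 were higher and 19 lower (median log2 difference, HSC-1 minus A431, -0.086), and among MRPS genes 12 were higher and 7 lower (median 0.038), with 0.0048 over all genes. The groups did not overlap in 57 members, 28 higher and 29 lower, or 78.1%, beside 32.3% higher, 32.9% lower and 65.3% in all over the genes tested. This comparison uses the same DMSO arrays as the everolimus comparisons.

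MRPS30, which is built into the large subunit, differed most. Its levels were 8.59, 8.63 and 8.64 in HSC-1 with DMSO, against 6.94, 6.99 and 6.75 in A431 with DMSO, a difference of 1.72 ± 0.07, which is 3.30-fold higher (limma adjusted p = 7.79e-14). With everolimus the levels were 8.71, 8.66 and 8.61 in HSC-1 and 7.03, 7.17 and 6.92 in A431. MRPS17, homologue of bacterial S17, had 9.49, 9.49 and 9.48 in HSC-1 with DMSO, against 8.49, 8.56 and 8.52 in A431, a difference of 0.96 ± 0.05 (limma adjusted p = 1.86e-12). For both genes the lines were apart under either treatment. MRPS31, MRPS2, MRPS5 and MRPS12 followed with differences of 0.78, 0.63, 0.50 and 0.49. The MRPS12 call was lost without A431 DMSO replicate 2, at an adjusted p of 0.0575.

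Of the higher MRPL genes, MRPL36, homologue of the small zinc-binding bacterial L36, had 7.18, 6.9995 and 6.82 in HSC-1 with DMSO, against 6.07, 5.89 and 6.05 in A431, a difference of 1.00 ± 0.12 (limma adjusted p = 7.47e-07). MRPL50, which bacteria lack, had 7.85, 7.77 and 7.98 in HSC-1 with DMSO, against 6.94, 6.99 and 6.79 in A431, a difference of 0.96 ± 0.07 (limma adjusted p = 1.03e-09). Neither gene's groups overlapped. MRPL41 and MRPL32, which is matured by the m-AAA protease, differed by 0.92 ± 0.11 and 0.91 ± 0.10, MRPL34 by 0.79 ± 0.07 and MRPL4 by 0.64 ± 0.07.

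Of the lower MRPS genes, MRPS18A had 7.47, 7.36 and 7.53 in HSC-1 with DMSO, against 8.59, 8.52 and 8.50 in A431 with DMSO, a difference of -1.08 ± 0.06, which is 2.11-fold lower (limma adjusted p = 5.73e-12). MRPS10, homologue of bacterial S10, had 8.88, 8.83 and 8.87 in HSC-1, against 9.79, 9.71 and 9.71 in A431, a difference of -0.88 ± 0.05 (limma adjusted p = 2.96e-11). MRPS18B had 7.58, 7.48 and 7.44 in HSC-1, against 8.37, 8.33 and 8.18 in A431, a difference of -0.79 ± 0.06 (limma adjusted p = 1.24e-09). In all 3 every HSC-1 array was below every A431 array. MRPS7, MRPS35 and MRPS27 followed with -0.68, -0.43 and -0.23. The call of MRPS27 (adjusted p = 0.0487) was the closest to the threshold on its inner side and was lost in 11 of 22 alternatives, among them without any 1 of the 3 HSC-1 DMSO arrays, any 1 of the 3 HSC-1 everolimus arrays, A431 everolimus replicate 2 or A431 DMSO replicate 1, with an adjusted p up to 0.278. The closest on the outer side was MRPL22 at 0.21 ± 0.09 (adjusted p = 0.0535).

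The lower MRPL genes were led by MRPL10 at -0.74 ± 0.09, MRPL14 at -0.69 ± 0.05, MRPL16 at -0.64 ± 0.07, MRPL11 at -0.58 ± 0.09, MRPL2 at -0.55 ± 0.05 and MRPL44 at -0.54 ± 0.07. All but MRPL44, which bacteria lack, are homologues of bacterial proteins of the same number. MRPL14 had 7.40, 7.41 and 7.40 in HSC-1 with DMSO, against 8.13, 8.11 and 8.06 in A431 with DMSO, and these groups stood well apart.

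**Figure D4:**
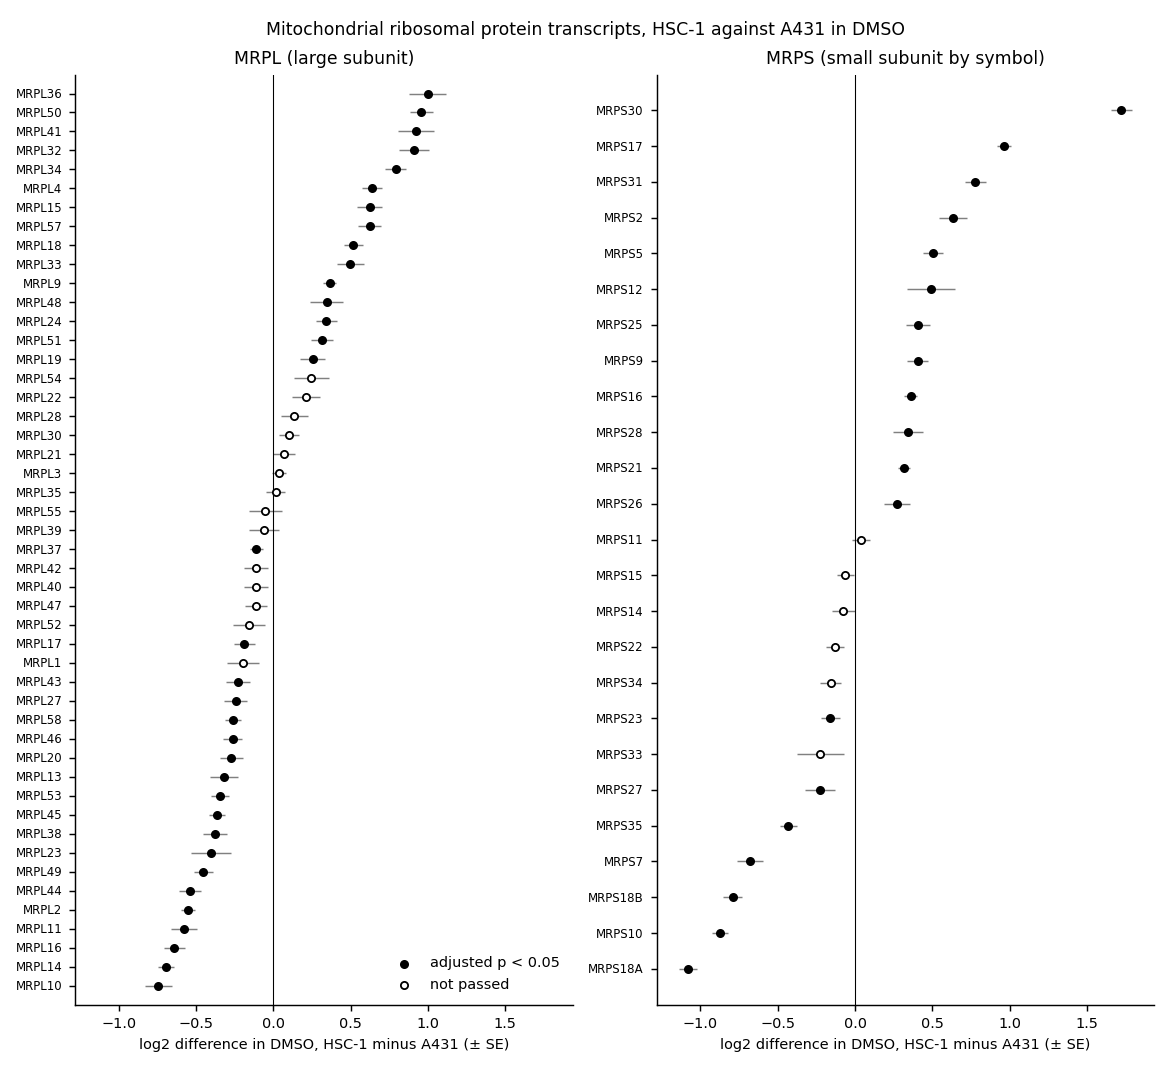
Log2 difference in DMSO, HSC-1 minus A431, with its SE for each of the 73 genes in order of size, MRPL left and MRPS right. Filled points passed an adjusted p of 0.05, 27 above 0 and 26 below, between -1.08 for MRPS18A and 1.72 for MRPS30.

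Across the members, the difference between the lines was correlated with that of neighbouring genes on the chromosome, with exceptions. Up to 10 tested genes on each side of a member were taken in the order of the RefSeq gene table, other members included, and their median difference between the lines was set beside the member's own. Over the 73 members Pearson's r was 0.84 and Spearman's rho 0.82, and 61 had the sign of their neighbours' median. Over all 10606 genes with such neighbours r was 0.40 and rho 0.46, with the same sign in 66.3%. For the everolimus effect the members' r was 0.25 in HSC-1 and 0.12 in A431, and over all genes 0.07 in each. Some members stood apart from their neighbours' median, such as MRPL16 at -0.64 beside -0.08 and MRPL34 at 0.79 beside 0.08. MRPL23 at -0.40 beside 0.06 and MRPS9 at 0.41 beside -0.07 had the opposite sign. Neighbouring windows overlap and all values come from the same arrays, so these are descriptions across genes. A cause was not tested.

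On chromosome 6, 5 of the 6 members were lower in HSC-1, namely MRPS10, MRPL2, MRPS18A, MRPL14 and MRPS18B. Their neighbours had median differences of -0.81, -0.68, -0.54, -0.67 and -0.57, with 17, 15, 14, 16 and 14 of 20 neighbours past the threshold and lower. Over all genes tested 30.2% were lower. MRPS10, MRPL2, MRPS18A and MRPL14 stand close together, at places 248, 263, 278 and 281 of the 529 tested genes of that chromosome, so their windows share genes. MRPL18, at place 502, was higher in HSC-1 by 0.52 ± 0.06, and its neighbours had a median of 0.02. On chromosome 17 all 7 members were lower, on chromosome 9 all 3 were higher and on chromosome 13 both were higher. Medians over all tested genes were -0.037 on chromosome 17, 0.33 on chromosome 9, 0.47 on chromosome 13 and 0.0069 on chromosome 6. On chromosome 11, 5 of the 7 members were lower and 1 higher, with a median of 0.0087 over all its tested genes. Chromosomes 1 and 2, with 8 members each, were mixed. On chromosome 1, 3 members were higher and 2 lower, and on chromosome 2, 4 were higher and 2 lower. Medians over all tested genes were 0.0009 on chromosome 1 and 0.013 on chromosome 2. The share of all tested genes past the threshold was not counted by chromosome. Over all genes tested, 29.2% were higher and 30.2% lower. On chromosome 5, MRPS30 and MRPL36 were higher with neighbour medians of 0.82 and 1.07, and MRPS27 was lower with a neighbour median of -0.50.

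**Figure D5:**
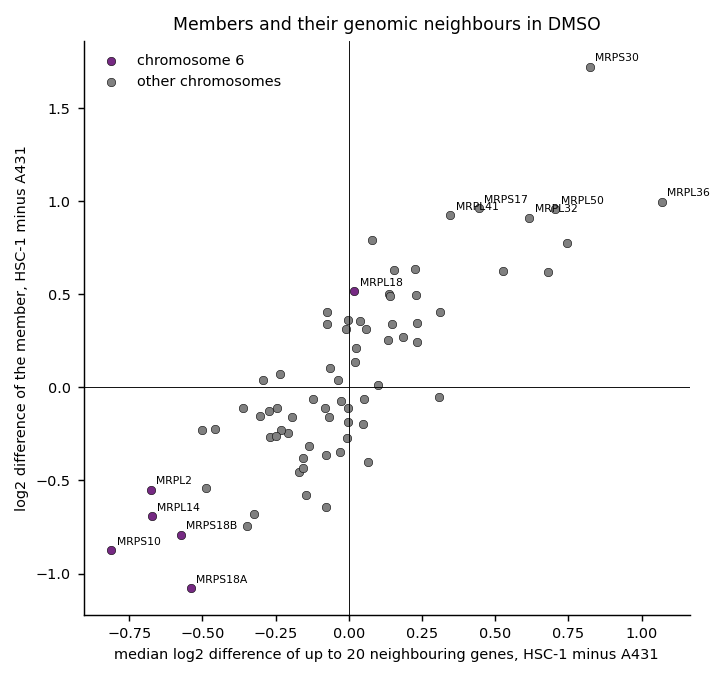
Log2 difference of each of the 73 members, HSC-1 minus A431 in DMSO, against the median difference of its up to 20 neighbouring tested genes, chromosome 6 in purple. Members and neighbours are correlated (r = 0.84), with MRPS10 at -0.88 beside -0.81 and MRPL36 at 1.00 beside 1.07. Exceptions include MRPL34 at 0.79 beside 0.08.

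Between the lines, 9 of the 24 assembly factors were higher (37.5%) and 10 lower (41.7%) in HSC-1, beside 29.2% higher and 30.2% lower over all genes tested. They were led by MPV17L2 at 1.23 ± 0.07, MTERF4, which recruits an rRNA methyltransferase to the large subunit, at -1.14 ± 0.11 and METTL15, a small subunit rRNA methyltransferase, at -0.996 ± 0.07. Of the 13 translation factors 6 were higher (46.2%) and 3 lower (23.1%), among them the initiation factor MTIF3 at 0.85 ± 0.09 and the elongation factor GUF1 at 0.84 ± 0.07. Among the regulators, MYC was higher by 0.84 ± 0.05 and YY1, NRF1 and MTFP1 were lower, with differences of -0.76 ± 0.06, -0.28 ± 0.07 and -0.85 ± 0.11. DAP3, a GTP-binding protein of the small subunit, was higher by 0.56 ± 0.07.

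Members with several probe sets were MRPL44, MRPS2, MRPS16 and MRPS18B, and the probe set with the highest mean was used. The 7 probe sets of MRPS18B held identical values. MRPL44's second probe set had a mean level of 2.27, above the median on 0 arrays, and a line difference of -0.026 beside -0.54. MRPS16's second probe set differed by 0.29 with everolimus in A431, beside -0.021, and that of MRPS2 by -0.24 in HSC-1, beside -0.08.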

How the data were processed

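Transcript levels came from 12 Affymetrix arrays, 3 in each of 4 groups taken from the sample labels. The authors deposited log2 values for each probe set, and the submitters' processing notes name RMA and Affymetrix Expression Console. Their versions were not given in the sources used here, nor was a genome build. Per the labels' protocols, total RNA was amplified and labelled with whole-transcript kits. Of 53617 probe sets, 16098 had 1 gene symbol in the platform annotation, covering 14884 genes after updating by Entrez identifier (RefSeq, GRCh38.p14). The probe set with the highest mean was kept per gene. Genes with at least 3 of 12 arrays above the array median were tested (10613). Group means were fitted with lmFit and eBayes with an intensity trend in limma 3.58.1 under R 4.3.3, on all 12 arrays with 8 residual degrees of freedom, and p-values were adjusted by Benjamini-Hochberg over all genes tested. Precision is limited by the number of arrays, and the scripts were tested on simulated data.

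Members, gene lists and motifs were chosen with earlier results of these data known. Named were, per comparison and subunit, up to 6 rising and 6 falling members with the largest change past the threshold (or the smallest p), those differing between the lines, those with several probe sets, the S18 paralogues, and up to 3 genes per pathway list. Same-numbered arrays of a line correlated in their deviations from the group means at -0.15 to 0.02 over 6 pairs, so numbers were not taken to pair the arrays. Alternatives were a replicate block, other level filters, variance priors, array weights, scalings and probe set rules, a fit on 6 arrays, an adjusted p of 0.01, leaving out each array, and, added after seeing the data, MRPS18A and MRPS30 counted with the large subunit.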

Additional observations from a re-analysis of the deposited data

Results flagged for a closer look

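The everolimus effect differed between the lines, by the test of the difference itself (limma, adjusted over all genes tested), for 6 mitochondrial ribosomal proteins. In all 6 the effect, not the level, was lower in HSC-1. They were 8.22% of the members, beside 5.69% with a lower effect and 10.5% in either direction over all genes tested. As HSC-1 effect minus A431 effect on the log2 scale, the differences were -0.39 for MRPL4, -0.38 for MRPL58, -0.33 for MRPS34, -0.28 for MRPL35, -0.28 for MRPL18 and -0.25 for MRPL3. The effects behind them were -0.39 in HSC-1 and -0.0014 in A431 for MRPL4, -0.44 in HSC-1 and -0.06 in A431 for MRPL58, and -0.37 in HSC-1 and -0.04 in A431 for MRPS34. They were -0.23 in HSC-1 and 0.05 in A431 for MRPL35, -0.39 in HSC-1 and -0.12 in A431 for MRPL18, and -0.15 in HSC-1 and 0.10 in A431 for MRPL3. At an adjusted p of 0.05 the call was lost in 9 of 21 alternative fits for MRPS34, 11 for MRPL18, 15 for MRPL35, 1 for MRPL3 and 0 for MRPL4 and MRPL58. Groups of 3 arrays were too small to look for single arrays that stand apart.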

How the results depend on the processing

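No call of a named member changed direction. Of 1006 tests of named members under alternatives, 931 kept their call or its absence, 74 lost a call and 1 gained one. In HSC-1 the 1 MRPL rise became 0 with no intensity trend, median centring or an adjusted p of 0.01, and 0 to 1 when single arrays were left out. The 16 MRPL falls became 6 at 0.01 and 8 to 17 when single arrays were left out. The 1 MRPS rise became 0 with the replicate block, no intensity trend, quantile normalization applied again, median centring or 0.01, and 0 to 1 without single arrays. The replicate block left 1 rise and 22 falls among the 73 members. In A431 the 0 MRPL falls and 0 MRPS falls became 0 to 1 each without single arrays. The A431 medians changed sign without single arrays. The MRPL median went from -0.022 to 0.0030 without A431 everolimus replicate 2. The MRPS median went from -0.022 to 0.0060 without A431 DMSO replicate 1. For the difference between the lines, the 0 MRPL rises became 1 with array weights. The 5 MRPL falls became 3 with no level filter or median centring, 2 with no intensity trend, 8 with quantile normalization applied again and 1 at 0.01, and 3 to 5 without single arrays. The 1 MRPS fall became 0 with no level filter, no intensity trend or 0.01, 2 with array weights, 4 with quantile normalization applied again, and 0 to 3 without single arrays. The MRPS median of that difference lay between -0.17 and -0.10 without single arrays. The MRPL median between the lines moved to -0.035 with quantile normalization applied again. The cause of these changes was not tested, beyond fewer arrays and the stricter threshold itself. A fit on 6 arrays cannot hold the difference between the lines and was run for the other comparisons. Only 3 arrays a group were measured, RMA hides changes in total RNA, and 4 members had no named probe set.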
